A study of Mus musculus with 9 samples.

Results

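Hoxa11 sites that carried no Hoxa13 peak at E11.5 (E, embryonic day) were examined in mouse limb tissue. Hoxa11 peaks of replicates 1 and 2 that overlapped by at least 1 bp were joined into 1023 sites. Of these, 213 met no Hoxa13 peak of the E11.5 list (20.8%, 95% exact interval 18.4 to 23.4). These 213 sites were selected on the measured peaks of both Hoxa11 libraries and of the E11.5 Hoxa13 library, so their lack of Hoxa13 at E11.5 is the choice itself and not a finding. The other 810 sites, with Hoxa13 at E11.5, served for comparison. Among the 213, 48 met Hoxa13 at E11.0 or E12.5 and 165 met it at no stage.

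The libraries came from wild-type ICR embryos, with home-made antibodies and 1 peak list per library. Hoxa11 was precipitated from whole limb buds at E11.5, the material of a litter per experiment, in 2 replicates that gave 2953 and 1647 peaks. Hoxa13 was precipitated from the autopod (the prospective hand and foot, 11 pairs) at E11.0, from the whole bud at E11.5 and likewise from the limb bud of E12.5. These 3 libraries, 1 per stage, gave 50890, 143460 and 44699 peaks. The E12.5 sample was prepared by an earlier published procedure, so stage cannot be told apart from tissue at E11.0 or from procedure at E12.5. A peak that was not called does not show that the protein was absent. Read depth is unknown, and whole limb buds mix cells, so fewer bound cells and weaker binding per cell cannot be told apart.

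Hoxa11 and Hoxa13 are homeodomain transcription factors of the posterior (AbdB-like) Hox class, which bind similar AT-rich sequences. Hoxa11 is active mainly in the zeugopod, the forearm and lower leg segment, and Hoxa13 in the autopod. In the growing limb bud their expression domains become largely separate, and loss of the group 13 genes lets Hoxa11 expression extend into the distal limb. Sites bound by one factor and not by the other are therefore of interest for how the segments differ. No gene or sequence was attached to the sites, since the positions are in the build mm9 and no genome or annotation of that build was used here.

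The E11.0 and E12.5 Hoxa13 lists played no part in choosing the sites. Sites without Hoxa13 at E11.5 mostly lacked it at the neighbouring stages too. At E12.5, 37 of 213 met a Hoxa13 peak (17.4%, 12.54 to 23.1), against 625 of the 810 sites with Hoxa13 at E11.5 (77.2%, 74.1 to 80.0). At E11.0, 18 of 213 did (8.45%, 5.09 to 13.0), against 295 of 810 (36.4%, 33.1 to 39.8). Over all 1023 Hoxa11 sites the shares were 64.7% at E12.5, 30.6% at E11.0 and 67.5% at either stage, against 22.5% (17.1 to 28.7) at either stage for the 213.

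The differences were wide against the counting error over sites. At E12.5 the sites without E11.5 Hoxa13 lay 59.8 percentage points lower (difference −59.8, Newcombe interval −65.1 to −53.4). At E11.0 the difference was −28.0 points (−32.5 to −22.4). These intervals treat sites as independent. Of the 18 sites that met E11.0, 14 lay in a short stretch of chromosome X, so the E11.0 intervals may be too narrow. Where overlap had to cover 50% of both partners, 282 of 855 sites lacked E11.5 Hoxa13 (32.98%), and the differences were −32.0 points at E12.5 and −9.59 points at E11.0. With 1 Hoxa13 library per stage no test over samples is possible, and sites are not replicates, so no p-value is given. In Hoxa11 replicate 2 alone, 481 of 1647 peaks lacked E11.5 Hoxa13 (29.2%), of which 18.7% met E12.5 and 14.8% met E11.0. In replicate 1 alone there were 855 such peaks of 2953 (29.0%), of which 11.0% met E12.5 and 3.74% met E11.0. The share at E11.0 thus varied more between the Hoxa11 replicates than the share at E12.5.

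The contrast at E12.5 was present at every width of site. Among sites of over 200 to 300 bp, 8 of 70 without E11.5 Hoxa13 met E12.5 (11.4%), against 58 of 85 with it (68.2%). In the widest class, over 700 bp, the counts were 1 of 14 and 147 of 158. It was also present in each quintile of the authors' fold enrichment in Hoxa11 replicate 2. In the lowest quintile, up to 3.30-fold, 11 of 84 sites without E11.5 Hoxa13 met E12.5 (13.1%), against 90 of 121 with it (74.4%). In the highest quintile, from 5.57-fold, the counts were 6 of 15 (40.0%) and 171 of 189 (90.5%).

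Where a site without E11.5 Hoxa13 did meet E12.5, the E12.5 peak was narrower than at the other sites and held the Hoxa11 summit less often. Its median width was 166 bp over 37 sites, against 292 bp over 625 sites, while the whole E12.5 list had a median of 154 bp. The Hoxa11 summit of replicate 2 fell inside the E12.5 peak at 24 of 37 sites (64.9%, 47.5 to 79.8), against 547 of 625 (87.5%, 84.7 to 90.0). Outside 1 Mb windows dense in peaks the shares were 13 of 17 (76.5%, 50.1 to 93.2) and 323 of 362 (89.2%, 85.6 to 92.2), with overlapping intervals, and the part of the narrower peaks in this was not tested. At E11.0 the summit fell inside the Hoxa13 peak at 10 of 18 sites (55.6%, 30.8 to 78.5), against 236 of 295 (80.0%, 74.97 to 84.4). The E11.0 peaks themselves differed little in median width, 305 bp against 331 bp. Between the Hoxa11 replicates, the shared stretch covered a median of 74.4% of the site (71.4 to 76.4) in sites without E11.5 Hoxa13, against 68.2% (66.5 to 69.6) in sites with it. The replicate 2 summit lay inside a replicate 1 peak at 200 of 213 sites (93.9%, 89.8 to 96.7), against 766 of 810 (94.6%, 92.8 to 96.03).

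The 48 sites with Hoxa13 at another stage fell into 30 with E12.5 only, 11 with E11.0 only and 7 with both. Most E11.0 overlaps came from a few places. Windows of 1 Mb were called peak-dense when the count of any of the 5 lists exceeded the upper quartile by over 3 interquartile ranges, which took 136 windows on chromosomes 1 to 19, X and Y. This definition uses the lists that chose the sites, and also the E11.0 and E12.5 lists whose overlaps are counted below. It serves as a description. Dense windows held 77 of the 213 sites (36.2%, 29.7 to 43.0), close to the 308 of 810 sites with E11.5 Hoxa13 (38.02%, 34.7 to 41.5).

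Outside those windows, Hoxa13 at E11.0 was nearly missing from the sites without E11.5 Hoxa13. There 1 of 128 met E11.0 (0.781%, 0.0198 to 4.28), against 150 of 482 with E11.5 Hoxa13 (31.1%, 27.0 to 35.5), a difference of −30.3 points (−34.7 to −25.04). At E12.5 the shares outside were 17 of 128 (13.3%, 7.93 to 20.4), against 362 of 482 (75.1%, 71.0 to 78.9). Inside dense windows 16 of 77 met E11.0 (20.8%, 12.4 to 31.5), against 130 of 308 (42.2%, 36.6 to 47.9). The E12.5 shares inside were 19 of 77 (24.7%, 15.6 to 35.8), against 244 of 308 (79.2%, 74.3 to 83.6). The difference from sites with E11.5 Hoxa13 was thus present in both parts of the genome. The few E11.0 overlaps lay almost wholly in the dense part, which was itself defined in part by crowding of E11.0 peaks.

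**Figure D1:**
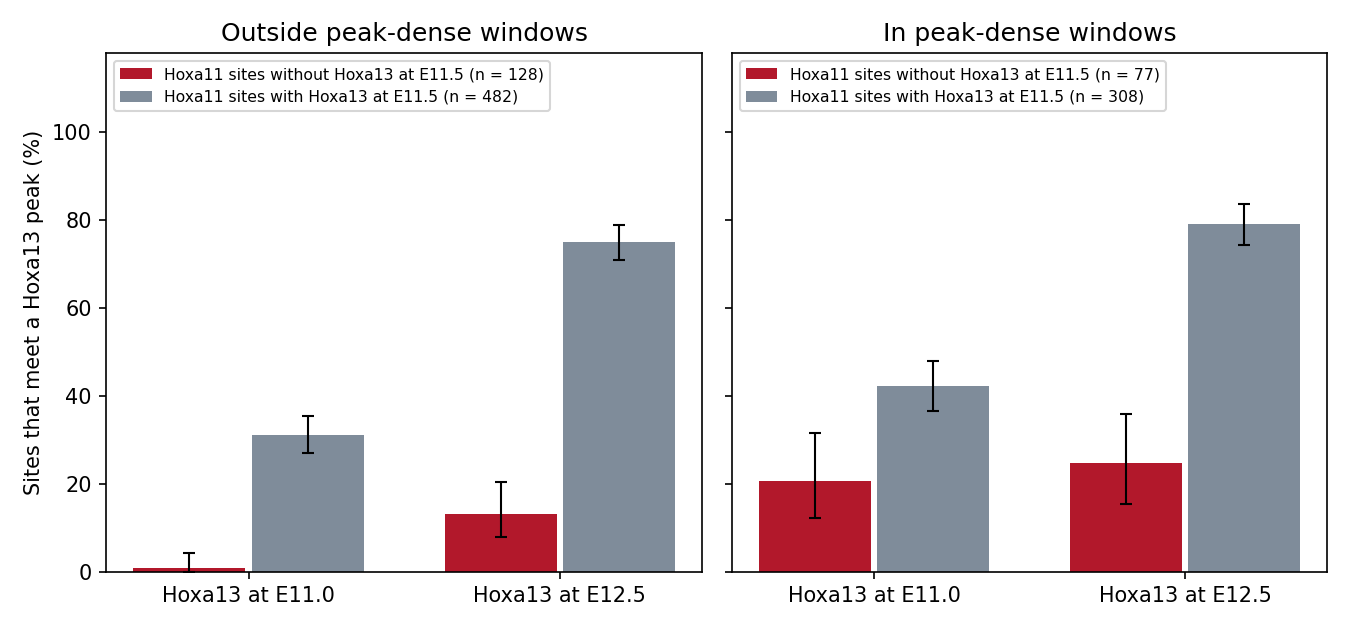
Share of Hoxa11 sites that met a Hoxa13 peak at E11.0 or E12.5 (%), for sites without (red) and with (grey) Hoxa13 at E11.5, outside and in peak-dense windows. Error bars are exact 95% binomial intervals over sites. The red bars lie below the grey ones in each pair, and outside dense windows the E11.0 share was 0.781% against 31.1%.

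A short stretch of chromosome X held nearly all sites with Hoxa13 at E11.0 but not E12.5. In the window from 92000001 to 93000000, 14 sites lay between 92127752 and 92174067, a span of 46.3 kb, with a median of 2595 bp from one start to the next. All of these met Hoxa13 at E11.0, 10 of them without E12.5 and 4 with it, and E11.5 Hoxa13 peaks lay 78 to 994 bp away. Their fold enrichment was low, from 2.05 to 3.03 with a median of 2.71. The window is rich in peaks of every list, with 82, 51 and 36 Hoxa13 peaks at E11.0, E11.5 and E12.5 and with 35 and 31 Hoxa11 peaks in replicates 1 and 2. A further 5 Hoxa11 sites of the window did meet E11.5 Hoxa13.

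The highest-scoring site with E11.0 alone lay elsewhere, at chr12:55782342-55783143, with 4.10-fold enrichment and −log10 q of 14.5. Those next in score were on chromosome X, at chrX:92140147-92140564 (3.03-fold), chrX:92160319-92160645 (2.86-fold), chrX:92154660-92154960 (2.88-fold) and chrX:92145851-92146172 (2.73-fold). The 11 sites of this class had a median gap of 382 bp to the nearest E11.5 Hoxa13 peak and 468 bp to the nearest at E12.5. Of these 11, 10 belonged to the chromosome X stretch, so the medians mostly describe that peak-rich stretch. The chromosome 12 site lay 2421 bp from E11.5 Hoxa13 and 677 bp from E12.5. The 165 sites with no Hoxa13 had a median gap of 6960 bp to E11.5.

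The 7 sites with both E11.0 and E12.5 Hoxa13 were also unevenly placed. On chromosome X, 4 of them belonged to the stretch just described, at chrX:92127752-92128370, chrX:92136283-92136733, chrX:92161046-92161390 and chrX:92162914-92163278, with 2.17 to 2.95-fold enrichment. A further one, chr12:55783658-55784348 (4.39-fold), lay 514 bp from the chromosome 12 site with E11.0 alone. Mitochondrial DNA held another, chrM:15374-15741, with the lowest fold of all 213 sites (1.99) and yet a −log10 q of 25.02. The E11.5 Hoxa13 list held 0 peaks on that sequence, while those of E11.0 and E12.5 held 1 each. Only chr6:37595402-37595793 (5.61-fold, −log10 q of 13.7) lay outside dense windows on a standard chromosome, 945 bp from an E11.5 Hoxa13 peak.

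Sites with Hoxa13 at E12.5 alone, the later limb bud, were spread more widely, and 16 of 30 lay outside dense windows. In enrichment they had a median of 3.96-fold (95% interval of the median 3.59 to 4.99), against 3.60-fold (3.43 to 3.79) for the 165 sites with no Hoxa13, and these intervals overlap. By the authors' score the highest was chr4:116862383-116862931, at 7.13-fold with −log10 q of 33.7. It was followed by chr12:55811215-55811779 (5.62-fold), chr10:110348406-110348822 (7.54-fold), chr1:187027777-187028090 (6.23-fold) and chr9:65049350-65049765 (5.12-fold). Their gaps to the nearest E11.5 Hoxa13 peak ran from 4848 bp on chromosome 9 to 13807 bp on chromosome 12. The median gap of all sites without E11.5 Hoxa13 was 5445.5 bp. A run of 5 such sites stood on chromosome X between 120160178 and 120189151, each with an E11.5 peak within 99 to 928 bp, in a window that held 18 Hoxa11 sites with E11.5 Hoxa13 as well.

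The 165 sites that met no Hoxa13 at any stage included a few strong ones. The strongest, chr10:98633049-98634126, had 15.8-fold enrichment and ranked 3 among all 1023 sites by −log10 q (106). Its nearest E11.5 Hoxa13 peak was 17542 bp away, that of E12.5 67325 bp and that of E11.0 99631 bp. At chr12:103765291-103765738 (9.46-fold, rank 42) an E11.5 peak stood only 460 bp away, while chr4:24765690-24766077 (9.20-fold, rank 56) was 47664 bp from E11.5 and 15032 bp from E12.5. High Hoxa11 enrichment was thus found both far from Hoxa13 and close beside it.

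The remaining named sites of this class ranked from 85 to 160. On chr18:7608622-7609684 (6.45-fold) the gaps to Hoxa13 were 4598 bp at E11.0, 4757 bp at E11.5 and 23194 bp at E12.5. On chr5:38309171-38309530 (5.14-fold) they were 6441, 6448 and 6600 bp, so no stage came closer than another by more than the width of the site. The fold enrichment was 7.33 at chr2:114737627-114738070, 5.24 at chr6:137766208-137767191, 5.46 at chr2:83550265-83550841, 7.12 at chr1:79180144-79180720 and 4.86 at chr11:87236235-87236820. Their gaps to E11.5 Hoxa13 ran from 91 bp, at the second of the chromosome 2 sites, to 9887 bp on chromosome 1.

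Although they met no E11.5 peak, many of the 213 sites had one close by. The gap was at most 500 bp at 33 sites (15.5%), at most 1000 bp at 50 (23.5%) and at most 10000 bp at 135 (63.4%), with a median of 5445.5 bp over the 212 sites with a value. For scale, successive E11.5 peaks had a median spacing of 9711 bp across the genome. Gaps from arbitrary positions to E11.5 peaks were not computed, so closeness beyond what the density of that list gives cannot be read from these counts. The E12.5 and E11.0 lists lay farther off, at medians of 14616 and 27803 bp. Both are shorter than the E11.5 list, but the E11.0 list, which lay farthest, is longer than that of E12.5 (50890 against 44699 peaks). Their medians include overlaps, with a gap of 0, which the rule excludes for E11.5. Among sites that met Hoxa13 at another stage, 25 of 48 had an E11.5 peak within 1000 bp (52.1%), against 25 of the 165 sites with no Hoxa13 (15.2%). This contrast rested on the 2 chromosome X stretches, which held 19 of those 25 and none of the 165. Without them it was 6 of 29 (20.7%, 7.99 to 39.7), against 15.2% (10.1 to 21.5), and the intervals overlap.

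**Figure D2:**
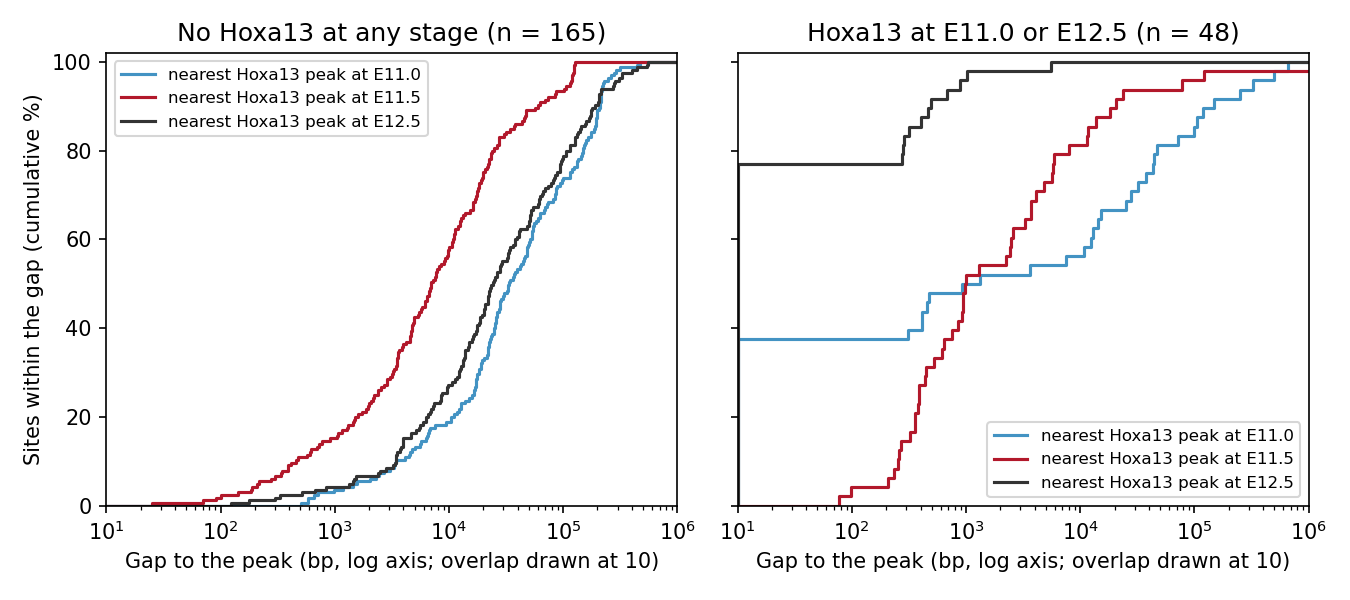
Cumulative share of sites (%) by gap to the nearest Hoxa13 peak of each stage (bp, log axis), for the 165 sites with no Hoxa13 and the 48 with Hoxa13 at E11.0 or E12.5. Overlaps are drawn at the left edge. In the left panel the E11.5 line runs above the others, and 15.2% of those sites had an E11.5 peak within 1000 bp.

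Few sites stood near the border of the rule. Of the 213, the smallest gaps to E11.5 Hoxa13 were 25 bp at chr16:15760835-15761230 (4.21-fold), 70 bp at chrX:121605569-121606585 (5.14-fold), 78 bp at chrX:92140147-92140564, 91 bp at chr2:83550265-83550841 and 99 bp at chrX:120164772-120165184 (3.61-fold). Among sites that did meet it, the smallest overlaps were 37 bp at chr8:94638372-94638652 (2.78-fold), 56 bp at chr1:96774391-96774804 (4.05-fold) and 99 bp at chrX:92156684-92157624 (2.67-fold). Next came 149 bp at chr6:136752420-136752977 (2.195-fold) and 173 bp at chrX:120822137-120822455 (4.21-fold). Overlaps of at most 100 bp made up 3 of 810 (0.370%), and the median overlap was 387.5 bp, so the rule seldom turned on a few bases.

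At the other end, 17 of the 165 sites had no Hoxa13 peak of any stage within 50000 bp. Only 2 places accounted for 13 of them. Unplaced sequence (Un_random) between 2373103 and 2465437 held 7 sites at 2.65 to 3.82-fold, with E11.5 peaks no nearer than 84095 bp. As this sequence is unplaced, gaps along it may not be distances in the genome, so these 7 cannot be called far from Hoxa13. Chromosome 6 between 114454585 and 114576850 held 7 sites at 2.43 to 3.44-fold, with 46998 to 125597 bp to E11.5, and 6 of these were over 50000 bp from every stage. The other 4 isolated sites were single, at chr2:26919928-26920837 (2.93-fold), chr5:112004857-112005288 (3.53-fold), chr10:79824620-79825217 (3.21-fold) and chr17:56812354-56812680 (2.86-fold). The chromosome 6 sites and the 4 single sites all lay below the median of the 165 sites, 3.60-fold. On Un_random the median was 3.23-fold, but the highest site, at 3.82-fold, lay above it.

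Windows of 1 Mb with at least 4 sites without E11.5 Hoxa13 numbered 6 and held 49 of the 213 (23.0%, 17.5 to 29.2), against 25 of the 810 sites with it (3.09%, 2.01 to 4.52). They were picked for their counts, so this is a description. Besides those on chromosome X, chromosome 6 and Un_random, they were chromosome 12 from 55000001 with 10 sites and chromosome 3 from 96000001 with 6. On chromosome 12, 9 of the 10 lay between 55782342 and 55839672, and no site of that window met E11.5 Hoxa13 although it held 49 E11.5 peaks. On chromosome 3 all 6 lacked Hoxa13 at any stage, at 2.42 to 3.83-fold. Of the 160 windows with a site, 144 held exactly 1.

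Without these 6 windows, 164 sites remained on the rest of the genome and the E11.0 overlaps all but disappeared. There 2 of 164 met E11.0 (1.22%, 0.148 to 4.34), against 279 of 785 with E11.5 Hoxa13 (35.5%, 32.2 to 39.0). At E12.5, 25 of 164 did (15.2%, 10.1 to 21.7), against 605 of 785 (77.1%, 73.97 to 80.0). The 11 sites with E11.0 alone all lay in the 6 windows. Median fold enrichment was 3.75 (3.59 to 3.96) for the 164 sites outside and 2.94 (2.84 to 3.24) for the 49 inside.

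**Figure D3:**
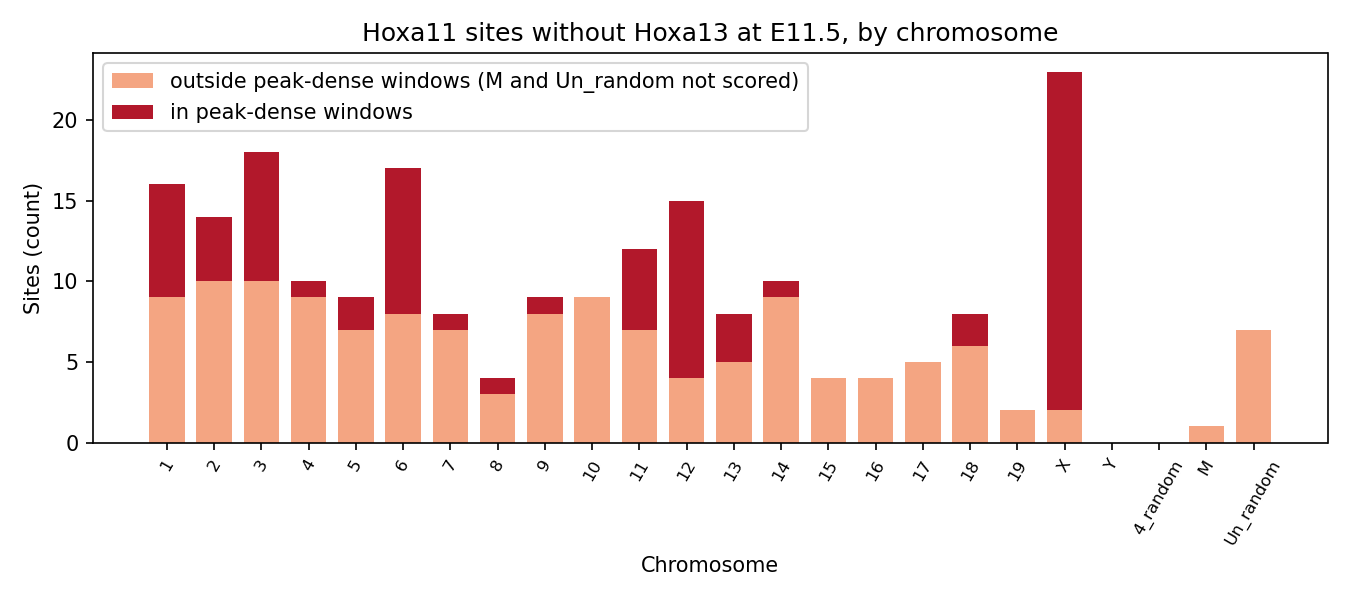
Number of Hoxa11 sites without Hoxa13 at E11.5 on each chromosome, in peak-dense 1 Mb windows (dark) and elsewhere (light). Chromosome X has the most, 23, of which 21 are in dense windows. Un_random and M were not scored for density.

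By chromosome, the sites were found on all 19 autosomes and on X. Chromosome X held 23 (10.8% of the 213), against 63 of the 810 with E11.5 Hoxa13 (7.78%), but 21 of those 23 were in dense windows. On Un_random, 7 of 14 Hoxa11 sites lacked E11.5 Hoxa13 (50%, 23.0 to 77.0), against 0 of 11 on 4_random (upper bound 28.5%). Among autosomes with over 30 Hoxa11 sites the share without E11.5 Hoxa13 ran from 9.52% (2.66 to 22.6) on chromosome 8 to 25.4% (15.5 to 37.5) on chromosome 6, and these intervals overlap.

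In the authors' values for Hoxa11 replicate 2, sites without E11.5 Hoxa13 were weaker. Their fold enrichment over the caller's background had a median of 3.60 (3.43 to 3.76) and a range from 1.99 to 15.8, against a median of 4.36 (4.28 to 4.52) and a range from 1.62 to 17.7 for sites with it. The −log10 q had medians of 7.43 and 9.63. These values come from a list that chose the sites, so they are a description with no test. Replicate 1 carried no such values. Outside dense windows the median fold was 3.80 (3.60 to 4.19), against 4.38 (4.24 to 4.58), so the order was the same there.

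The share of Hoxa11 sites without E11.5 Hoxa13 was lower in each higher quintile of fold enrichment. From the lowest to the highest it was 41.0%, 23.4%, 17.6%, 14.7% and 7.35% (4.17 to 11.8 in the last). By quintiles of −log10 q it was 26.3%, 27.3%, 22.9%, 16.7% and 10.8%, a smaller fall that did not hold at the first step. By width it was 40.5% in the narrowest quintile, up to 316 bp, and 9.31% (5.70 to 14.2) in the widest, from 665 bp. The 213 sites had a median width of 343 bp, against 457.5 bp for the 810, and the part of width in these shares was not tested. Of the 50 Hoxa11 sites with the highest −log10 q, 2 lacked E11.5 Hoxa13 (4.00%, 0.488 to 13.7), and of the 100 highest 7 did.

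**Figure D4:**
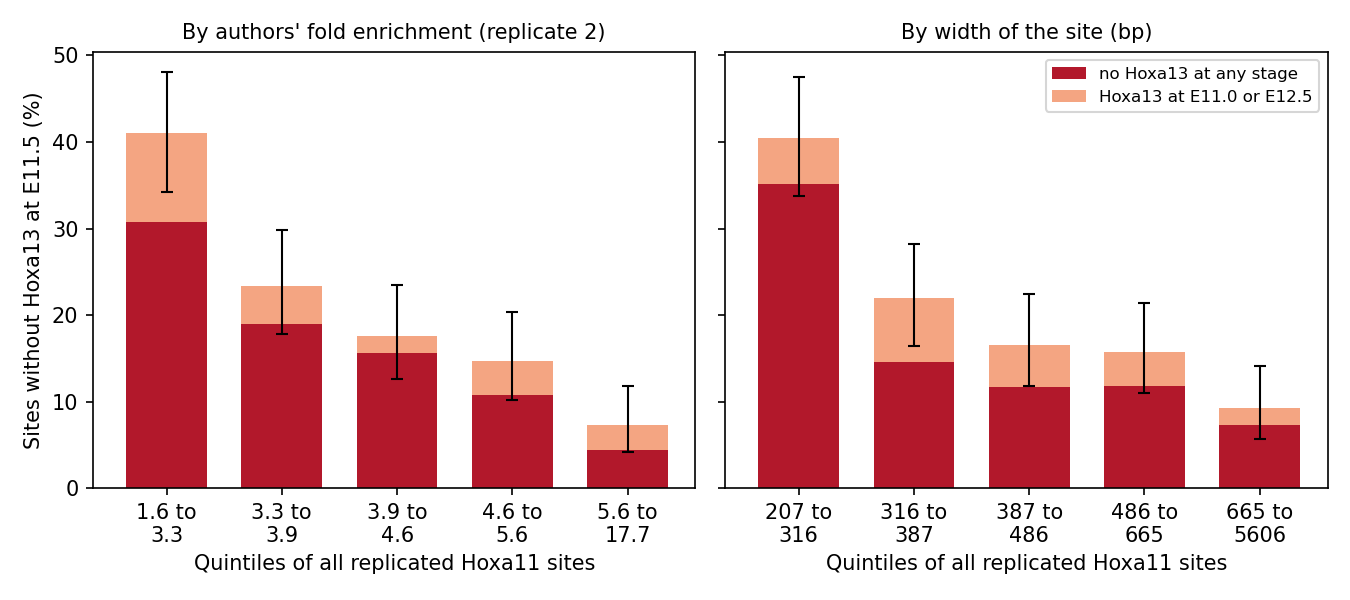
Share of Hoxa11 sites without Hoxa13 at E11.5 (%), by quintiles of the authors' fold enrichment (left) and of site width in bp (right). Each bar is split into sites with no Hoxa13 at any stage (dark) and with Hoxa13 at E11.0 or E12.5 (light), and error bars are exact 95% intervals of the whole bar. The bars drop to 7.35% in the highest quintile of fold and 9.31% in the widest.

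**Figure D5:**
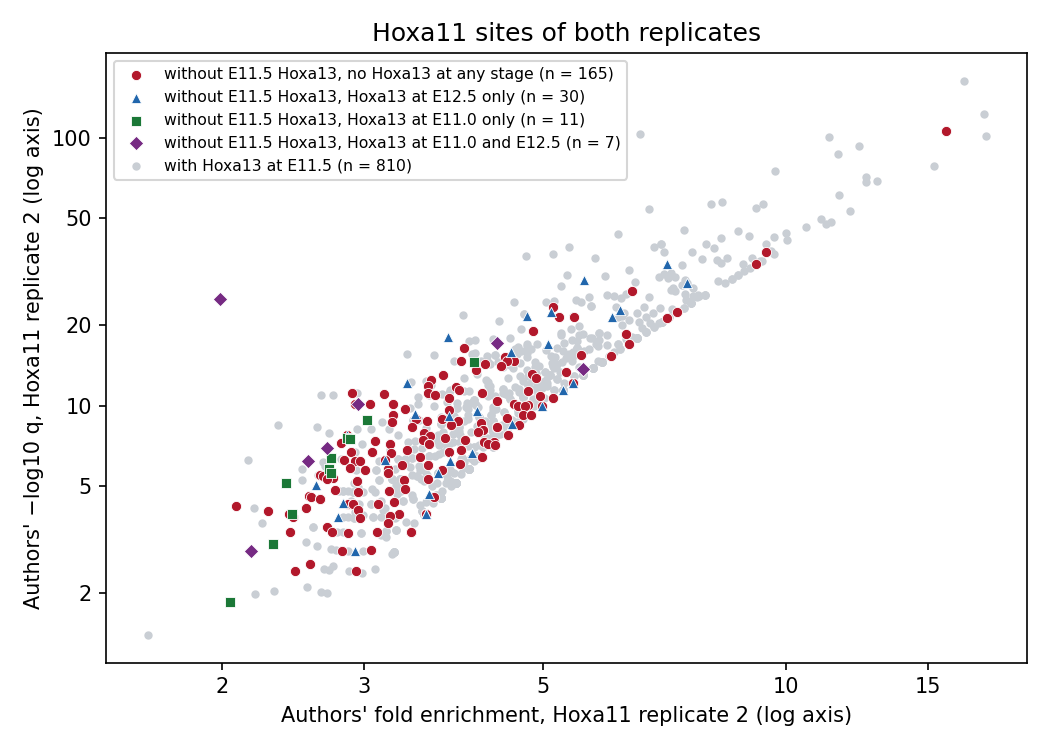
Authors' fold enrichment against −log10 q in Hoxa11 replicate 2 (both log axes), 1 point per site, with sites without E11.5 Hoxa13 coloured by their Hoxa13 at other stages and sites with it in grey. The site at 15.8-fold has no Hoxa13 at any stage, and the point at 1.99-fold with −log10 q of 25.02 is the mitochondrial site.

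Away from the dense windows the sites were solitary. Another site without E11.5 Hoxa13 lay within 10000 bp at 37 of the 213 (17.4%) but at 2 of the 128 outside dense windows (1.56%, 0.190 to 5.53). Sites with E11.5 Hoxa13 had another such site within 10000 bp at 143 of 810 (17.7%). The 810 sites offer more possible neighbours than the 213, so these near-equal shares do not show equal grouping. For the 810 the share outside dense windows was not computed. A Hoxa11 site with E11.5 Hoxa13 lay within 100000 bp at 44 of 213 (20.7%), and at 3 of those 128 (2.34%, 0.486 to 6.70). Among the 213, grouping was thus mostly a feature of the dense windows, which are defined by crowding of peaks.

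The 1 Mb windows around HoxA, HoxB, HoxC and HoxD, placed from general knowledge of mm9, had 2 of their 16 Hoxa11 sites without E11.5 Hoxa13, both in the HoxA window on chromosome 6. At 16 sites this cannot be set apart from the 20.8% over all Hoxa11 sites. At chr6:52180923-52181404 the enrichment was 2.70-fold, and Hoxa13 peaks stood 124 bp away at E12.5, 1952 bp at E11.5 and 4084 bp at E11.0. At chr6:52752429-52752713 it was 2.95-fold, with Hoxa13 302 bp away at E11.5, 329 bp at E12.5 and 23640 bp at E11.0. They were the weakest of the 7 Hoxa11 sites of that window, the others having 3.27 to 5.80-fold enrichment. In the windows of HoxB, HoxC and HoxD every one of the 9 Hoxa11 sites met E11.5 Hoxa13.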

How the data were processed

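The authors deposited 1 peak list per ChIP library. MACS2 2.1.0, Bowtie2 2.2.2, CASAVA 1.4 and the build mm9 are named in the submitters' processing notes. Thresholds, treatment of duplicates and use of the input are not given in the sources used here. The 4 input libraries were not analysed here. All lists hold positions. The deposited list of Hoxa11 replicate 2 also holds the authors' score (the whole part of 10 times −log10 q in 100% of its peaks), the authors' fold values (enrichment as a ratio to the peak caller's expected level), −log10 p and q as the authors deposited them, and the summit. The labels do not say whether the Hoxa11 replicates came from separate litters, so their spread may be technical. By its title 1 input library served both Hoxa13 at E11.5 and Hoxa11 replicate 1, and its part in the results was not tested.

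Overlap means at least 1 bp, and gaps count the bases between intervals. A site takes the values of its replicate 2 peak with the highest −log10 q, and its window from its midpoint. Shares have exact Clopper-Pearson intervals, differences Newcombe intervals and medians exact order-statistic intervals, all at 95% and covering counting error over sites only. They treat sites as independent, which neighbouring sites may not be. Python 3.11.15, numpy 2.4.6 and scipy 1.17.1 were used, and the interval code was tested on simulated peaks. The sites and lists were chosen with earlier results of these data known. Named are the 10 highest-scoring sites with no Hoxa13, the 5 highest with E12.5 alone and with E11.0 alone, all with both, the 5 nearest the border of the rule on each side, windows with 4 or more sites and those of the Hox clusters. The isolated sites were chosen after their values were seen. Reference tables of another build were not used. Positions are 1-based in mm9.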

Additional observations from a re-analysis of the deposited data

How the results depend on the processing

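Results were recomputed under 11 other settings each (10 for fold enrichment), 1 of them chosen after seeing the data (without the 26 windows dense in the Hoxa13 lists), as were the recomputing of differences and the leaving out of the chromosome X stretches. Both differences from sites with E11.5 Hoxa13 stayed negative in every setting. Under 50% reciprocal overlap, which partners of unlike width meet less easily, they shrank to −32.0 points at E12.5 and −9.59 at E11.0, and with Hoxa13 within 500 bp counted as met the E11.0 difference was −34.7 points. With single Hoxa11 replicates they ranged from −53.2 to −52.3 and from −28.4 to −22.3. The number of sites was 282 of 855 under reciprocal overlap (32.98%, against 20.8%). It was 348 of 1023 (34.02%) with the widest 44699 peaks of each Hoxa13 list (fewer E11.5 peaks by construction). Without the dense windows it was 136 of 638 (21.3%). With single replicates it was 481 of 1647 (29.2%) in replicate 2 and 855 of 2953 (29.0%) in replicate 1. The share with no Hoxa13 was 67.0% with the widest peaks, 86.8% without dense windows, 74.8 to 86.4% with single replicates and 85.4% without the 26 windows. The E12.5 share was 29.0% with the widest peaks and 11.0 to 18.7% with single replicates. The E11.0 share was 1.47% without dense windows, 2.08% without the 26 windows, 5% with the 500 bp gap and 3.74 to 14.8% with single replicates. Median fold was 3.90 under reciprocal overlap, 3.93 at −log10 q of at least 5 (weak peaks removed by construction) and 3.83 with the widest peaks. For the other changes the cause was not tested. Read depth was unknown and limits what a missing peak can show.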

Other observations

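Hoxa11 peaks found in a single replicate also lacked E11.5 Hoxa13 in part: 632 of 1897 in replicate 1 (33.3%) and 257 of 583 in replicate 2 (44.1%). Of these, 569 in replicate 1 and 185 in replicate 2 met no Hoxa13 at any stage. On chromosome 6 from 114000001 to 115000000, replicate 1 held 33 Hoxa11 peaks, of which 32 lacked E11.5 Hoxa13, and replicate 2 held 10, of which 9 did. On Un_random from 2000001 to 3000000, all 27 replicate 1 peaks and 9 of 10 replicate 2 peaks lacked it. In both places replicate 1 thus held more Hoxa11 peaks without E11.5 Hoxa13 than replicate 2. The same was true over the whole lists, with 855 of 2953 peaks against 481 of 1647.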
